A study of Mus musculus with 12 samples.

Results

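Cholesterol synthesis and the SREBP system were followed in mouse brain cortex through 30 genes, of the 53379 genes in the deposited count table. They were chosen by symbol, as enzymes of the cholesterol pathway, regulators of the transcription factors that control it, and enzymes that supply fatty acids, acetyl-CoA and NADPH. All 30 matched an Ensembl gene and all 30 passed the filter on low counts, so none is missing from the comparisons below. The tissue came from wild-type (WT) C57BL/6J mice 6 months after repeated closed head injury of less than mild grade (rlmTBI) or a sham procedure. Its 4 groups of 3 libraries each were fish oil injured (fish oil within a high-fat diet, plus rlmTBI), fish oil sham, purified injured (a purified control diet plus rlmTBI) and purified sham. The fish oil diet was given in cycles and the purified diet continuously, so the diets differ in fat content and schedule as well as in fish oil, and these cannot be told apart. No group carried a transgene or deletion.

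Cholesterol in the brain is made locally, because the blood-brain barrier keeps out circulating lipoproteins, and most of it lies in myelin and in the membranes of neurons and glia. Synthesis runs from acetyl-CoA through mevalonate and isoprenoids to squalene, which is closed to lanosterol and trimmed to cholesterol. SREBP proteins, encoded by Srebf1 and Srebf2, are held in the endoplasmic reticulum by Scap and the Insig proteins when sterols are plentiful. They are released and enter the nucleus when sterols run low, where SREBP2 acts mainly on sterol genes and SREBP1 mainly on fatty acid genes. Polyunsaturated fatty acids such as those of fish oil are known from rodent liver to lower SREBP1 activity.

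Total counts per library ran from 46362158 to 70754854. The lowest count of any member in any library was 108, for Fdps, and counting error weighs most on this gene. Excitatory neuron markers of cortex were present throughout, at a summed 681 to 1517 CPM (counts scaled to a common library size with TMM factors) over 7 genes. Other tissue was uneven. The 3 olfactory bulb markers summed to 644 CPM in replicate 3 of purified injured, with no other library over 26.8 CPM, and striatal markers (6 genes) reached 1067 CPM in fish oil sham replicate 2 and 464 CPM in purified sham replicate 4 against 53.5 to 256 CPM elsewhere. The 8 choroid plexus markers summed to 224, 2654 and 2513 CPM in fish oil injured replicates 2, 3 and 4 and to 480 CPM in purified sham replicate 3, against 17.97 to 64.4 CPM in the other 8 libraries. Below, "the olfactory bulb library" is purified injured replicate 3, and "libraries of other regions" means it and fish oil sham replicate 2. These names are shorthand for the markers and are not in the labels. Both libraries also held cortical excitatory neuron markers, at 799 and 681 CPM. Purified sham replicate 4 is not included in the term. Whether every library came from a separate animal is not in the labels, so a p-value here reflects spread among libraries, which may be technical. Replicates 3 and 4 of every group carry library names with the same first number, whose meaning is not given; if it marks a shared source such as a cage, each group holds 2 independent units in place of 3, and the standard errors and p-values would be too small. In bulk tissue fewer cells of a type and less RNA per cell cannot be told apart.

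Per kilobase of merged exons, Hmgcs1, which makes the substrate of the rate-limiting step, had the highest level of the 30 at 93.0 CPM per kb, averaged over the 12 libraries. ATP citrate lyase, Acly, followed at 44.2 CPM per kb, then the sterol sensor Insig1 at 29.97, squalene synthase Fdft1 at 26.8 and the desaturase Sc5d at 19.9 CPM per kb. The lowest levels belonged to the sterol reductase Tm7sf2 at 2.84 CPM per kb and farnesyl diphosphate synthase, Fdps, at 0.794 CPM per kb. Fdps shares stretches of at least 200 bases at 95% identity or more with 5 other annotated genes, among them the processed pseudogene Gm3571, and how reads that match several places were treated is not given in the sources used here. Acat2 likewise resembles Acat3 and shares a stretch of 445 bases with Tcp1, which averaged 202 CPM against 37.7 CPM for Acat2. Idi1, Me1, Acaca and Fdft1 have processed pseudogenes, so the levels of these 6 genes, Fdps and Acat2 included, are uncertain. Exons of Fdft1 overlap Ctsb on the opposite strand, those of Cyp51 overlap Akap9, of Srebf1 Rai1 and of Acss2 Ggt7 and Gss. Tm7sf2 overlaps Vps51 on the same strand. Fdps, of the lowest level, also has a same-strand overlap, with Gm43738, identical over 929 bases and itself at 0 CPM. The strand setting of the counting is not given either, and reads of these pairs may be shared. Between the highest and the lowest library the 30 genes differed by 1.27-fold for Acaca to 2.23-fold for mevalonate kinase, Mvk.

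**Figure D1:**
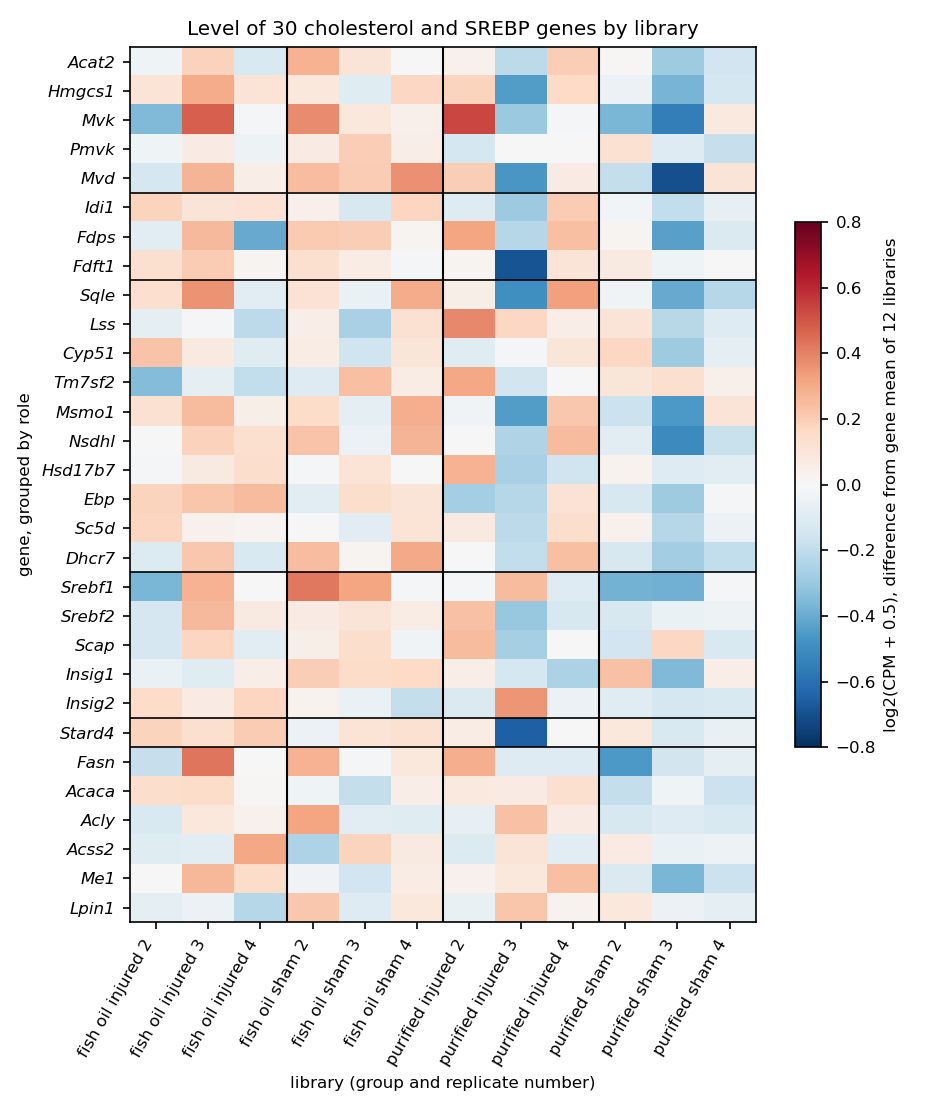
Level of each of the 30 genes (rows, ordered by role) in each of the 12 libraries (columns), as log2(CPM + 0.5) minus the gene's mean over all libraries; red is higher and blue lower. Most sterol enzymes are blue in purified sham replicate 3 and purified injured replicate 3, and 23 of the 30 genes have their lowest group mean in purified sham.

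Purified sham was the group with the lowest mean for 23 of the 30 genes, where it was lowest for 28.2% of all 19252 genes tested. The highest group mean lay in fish oil injured for 14 genes, in fish oil sham for 13, in purified injured for 2 (Lss and Acly) and in purified sham for 1 (Tm7sf2). The exceptions among the lowest were Fdft1, Insig1, Stard4 and Acss2, lowest in purified injured, and Lss, Tm7sf2 and the phosphatidate phosphatase gene Lpin1, lowest in fish oil injured. These group means are a description, and every difference drawn from them below was tested gene by gene with edgeR's quasi-likelihood test, adjusted by Benjamini-Hochberg over all 19252 genes. By that test, 0 of the 30 genes passed an adjusted p of 0.05 in each of 7 comparisons, on a background of 0% of all genes called in each. DESeq2 and limma-voom called 0 of the 30 as well.

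The 18 enzymes from acetyl-CoA to cholesterol varied together from library to library. As deviations from the group means over 12 libraries, the 153 pairs among them had a median correlation of 0.486, and 88.9% of pairs were above 0, where all pairs of tested genes had a median of -0.00067 and 49.9% above 0. Without the libraries of other regions the median over 10 libraries was 0.398, with 81.1% above 0. Genes of a library share its depth and its tissue makeup, and these correlations are given without a test. Hmgcs1 followed the mean of the other enzymes most closely at 0.966, then squalene epoxidase, Sqle, at 0.909, the methyl sterol oxidase Msmo1 at 0.857 and mevalonate decarboxylase, Mvd, at 0.849. Phosphomevalonate kinase, Pmvk, stood at 0.020 and Tm7sf2 at 0.32. Outside the enzymes, the sterol carrier Stard4 was at 0.753 and malic enzyme, Me1, at 0.637, the fatty acid synthase gene Fasn at 0.336 and Srebf1 at -0.048. Several of these values changed without the libraries of other regions: Stard4 was then at 0.369, Srebf1 at 0.358, Me1 at 0.826, Pmvk at 0.283 and Tm7sf2 at -0.082. Insig2 was at -0.725, and at -0.357 without the libraries of other regions, in one of which it was at its highest.

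Averaged over the 18 enzymes, the level relative to the 12-library mean was 0.00, 0.18 and -0.02 on the log2 scale in fish oil injured replicates 2, 3 and 4. It was 0.12, 0.02 and 0.14 in fish oil sham, 0.10, -0.26 and 0.13 in purified injured and -0.03, -0.30 and -0.07 in purified sham. Replicate 3 of both purified groups stood below the rest. That of purified injured is the olfactory bulb library. That of purified sham had 480 CPM of choroid plexus markers and 1951 CPM of the 10 oligodendrocyte markers, the lowest such sum of the 12 libraries. The part of either in these levels was not tested. All 3 fish oil sham libraries lay above all 3 purified sham libraries, and the other groups overlapped with their counterparts. The 6 fatty acid, acetyl-CoA and NADPH genes lay at -0.13 to -0.11 in purified sham, below every other library, and between -0.06 and 0.13 in the other 9.

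**Figure D2:**
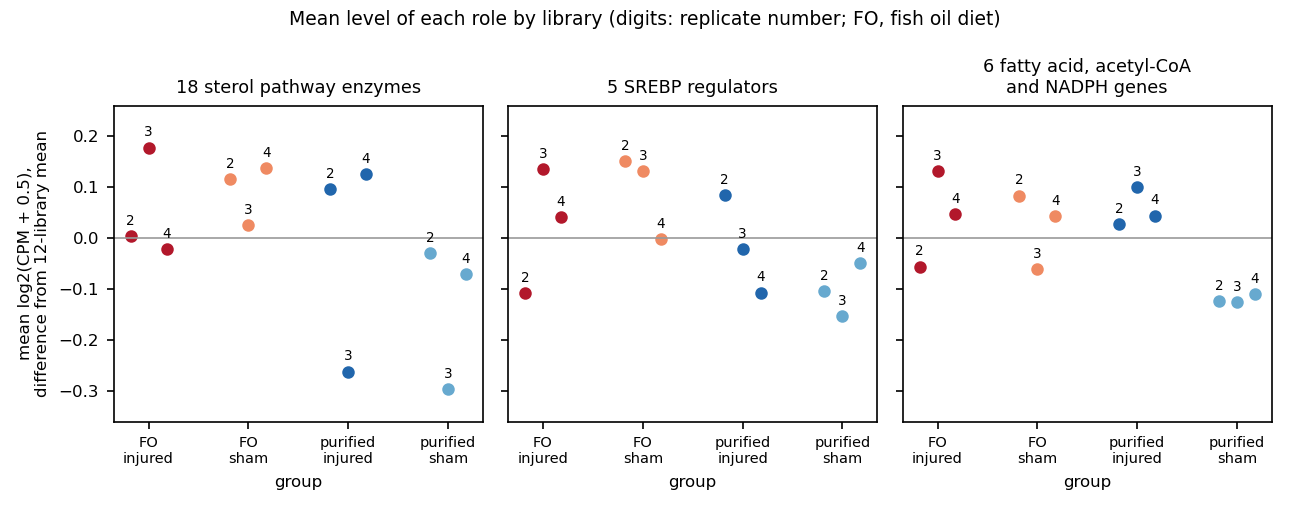
Mean level per library of the 18 sterol pathway enzymes, the 5 SREBP regulators and the 6 fatty acid, acetyl-CoA and NADPH genes, as mean log2(CPM + 0.5) minus the 12-library mean; each point is a library, marked by its replicate number. Purified sham libraries lie at -0.30 to -0.03 for the sterol enzymes and at -0.13 to -0.11 for the fatty acid genes.

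Stretches just upstream of the transcription start are shown for Hmgcs1, the enzyme that followed the pathway mean most closely, and for 4 genes whose fish oil sham and purified sham libraries did not overlap. They come from RefSeq on GRCm38.p6, 5′ to 3′ in the direction of transcription. Capitals mark the letters TCACNCCAC of the sterol response element or its core CACNCCA, which lies within it, the E-box CACGTG, the CCAAT box and the GC box GGGCGG, each searched on both strands. Hmgcs1 lies on the plus strand at chr13:119690101-119690350, Mvd on the minus strand at chr8:122443423-122443572, the sterol dehydrogenase Nsdhl on the plus strand at chrX:72918371-72918520, Srebf2 on the plus strand at chr15:82147019-82147268 and Fasn on the minus strand at chr11:120824548-120824697.
Hmgcs1: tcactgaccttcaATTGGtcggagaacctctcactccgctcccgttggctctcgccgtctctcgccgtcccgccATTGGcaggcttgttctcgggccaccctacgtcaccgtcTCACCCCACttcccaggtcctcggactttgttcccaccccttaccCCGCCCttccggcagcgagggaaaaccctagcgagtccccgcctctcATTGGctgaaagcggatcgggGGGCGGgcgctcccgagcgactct
Mvd: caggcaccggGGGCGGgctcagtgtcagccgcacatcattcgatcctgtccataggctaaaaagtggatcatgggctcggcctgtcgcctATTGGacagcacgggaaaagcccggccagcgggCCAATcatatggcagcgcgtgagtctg
Nsdhl: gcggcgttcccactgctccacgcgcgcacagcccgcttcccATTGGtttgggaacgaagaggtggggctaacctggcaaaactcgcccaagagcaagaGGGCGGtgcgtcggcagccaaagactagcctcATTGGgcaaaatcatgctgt
Srebf2: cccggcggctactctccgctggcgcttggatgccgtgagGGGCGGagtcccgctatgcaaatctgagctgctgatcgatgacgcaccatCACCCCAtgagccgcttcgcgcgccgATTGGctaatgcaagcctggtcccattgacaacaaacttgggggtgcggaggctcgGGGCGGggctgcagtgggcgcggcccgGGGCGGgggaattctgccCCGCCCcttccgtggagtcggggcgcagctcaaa
Fasn: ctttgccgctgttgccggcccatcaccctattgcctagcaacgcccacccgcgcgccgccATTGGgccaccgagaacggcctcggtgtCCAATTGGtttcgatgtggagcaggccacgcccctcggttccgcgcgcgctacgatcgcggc

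Promoter windows matched 26 of the 30 genes by symbol, the 250 bases before each start. The 9-letter element was found in 1 of the 26, Hmgcs1, from 137 to 129 bases before its start, and in 1.22% of 13156 tested genes with a window. Its 7-letter core was in 7 of the 26 (26.9%), among them Hmgcs1, Srebf2, Insig1, Insig2 and Msmo1, against 18.3% of tested genes. A CCAAT box was found in 21 of 26 (80.8%) against 39.7%, and a GC box in 22 of 26 (84.6%) against 58.9%. An E-box was found in 5 of 26 (19.2%), Dhcr7, Hsd17b7, Insig1, Sc5d and Scap, against 9.15%. Genes with several starts count once if any window matched. These are letter matches in a short window and say nothing of elements elsewhere or of binding.

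Between the diets in sham mice, 29 of the 30 genes had higher values on fish oil, Tm7sf2 being the exception at a log2 fold change of -0.02. Their median log2 fold change was 0.16, where that of all genes tested was 0.01 with 51.1% above 0. The sterol enzymes varied together from library to library, so counts of genes above 0, here and below, are not independent results for each gene. No gene passed the test: 4 of 30 had an unadjusted p under 0.05, all higher on fish oil, where 3.69% of all genes did, and edgeR called 0 of 19252 genes (DESeq2 17, limma-voom 0). In 8 of the 30 (Mvd, Fdps, Nsdhl, Dhcr7, Srebf1, Srebf2, Fasn and Acly) every fish oil sham library exceeded every purified sham library, against 6.31% of all genes, and in 0 every library was lower, against 7.45%. Between the nearest libraries the gap was very small for Fdps (3.342 against 3.339 CPM), Acly (216.5 against 215.7 CPM) and Srebf1 (22.86 against 22.74 CPM). The count above 0 ran from 27 to 30 and the median from 0.14 to 0.19 when any 1 library was left out. Without the libraries of other regions, where fish oil sham had 2 libraries, 30 of 30 were above 0, and 11 did not overlap, against 9.3% of all genes.

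Dhcr7 (ENSMUSG00000058454.15, GRCm38 chromosome 7, 143823145 to 143848410), the reductase of the last step to cholesterol, had 36.5, 31.1 and 38.0 CPM in fish oil sham libraries, against 27.97, 25.2 and 26.7 CPM in purified sham libraries. The groups did not overlap, and the log2 fold change was 0.40 ± 0.14 (SE; adjusted p = 0.934 by edgeR). Nsdhl (ENSMUSG00000031349.4, chromosome X), which helps remove methyl groups from lanosterol, had 31.2, 25.7 and 32.1 CPM in fish oil sham libraries, against 25.01, 18.5 and 23.4 CPM in purified sham libraries. Its groups came within 1 CPM of each other, with a log2 fold change of 0.41 ± 0.15 (adjusted p = 0.934). Mvd averaged 14.3 ± 0.855 CPM in fish oil sham and 9.93 ± 2.81 CPM in purified sham (SD, n = 3 each), a log2 fold change of 0.52 ± 0.23, and 0.33 without purified sham replicate 3. Mvk was at 0.46 ± 0.28, Sqle at 0.34 ± 0.19 and Msmo1 at 0.29 ± 0.18 (0.17 without purified sham replicate 3). Acss2, which makes acetyl-CoA from acetate, was at 0.02 ± 0.14, and lanosterol synthase, Lss, at 0.05 ± 0.13.

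Srebf1 (ENSMUSG00000020538.15, chromosome 11, 60199089 to 60222581), whose 2 SREBP1 forms are not separated in counts per gene, had 30.9, 28.7 and 22.9 CPM in fish oil sham libraries. In purified sham libraries it had 17.6, 17.45 and 22.7 CPM. Only a narrow gap set the groups apart, and the log2 fold change was 0.51 ± 0.19 (adjusted p = 0.934 by edgeR). Srebf2 had 141, 146 and 141 CPM in fish oil sham libraries, against 124, 131 and 132 CPM in purified sham libraries, a log2 fold change of 0.15 ± 0.14. Insig1, itself a classic target of SREBP, had 106, 102 and 103 CPM in fish oil sham libraries, close together, against a scattered 109, 72.0 and 95.7 CPM in purified sham libraries. Its log2 fold change was 0.17 ± 0.14, and it rested on single libraries, at 0.03 without purified sham replicate 3 and 0.30 without purified sham replicate 2. Scap, the escort of SREBP, had 59.3, 63.3 and 56.1 CPM in fish oil sham libraries, against 51.5, 64.4 and 52.7 CPM in purified sham libraries, at 0.08 ± 0.14. Insig2 was at 0.05 ± 0.12, and for both genes the groups overlapped. Endothelial markers (6 genes) differed between the same groups, summing to 81.5 to 101 CPM in fish oil sham and 140 to 191 CPM in purified sham, with none at 0. Choroid plexus markers summed to 33.7 to 64.4 CPM in fish oil sham and 29.6 to 480 CPM in purified sham. Oligodendrocyte markers (10 genes) overlapped widely, at 2895 to 5405 CPM and 1951 to 5810 CPM, and astrocyte markers (7 genes) at 5762 to 7182 CPM and 5773 to 7018 CPM. Even so, all 10 oligodendrocyte markers had values above 0, at a median log2 fold change of 0.18. The same held for all 6 microglia markers (median 0.30) and all 6 striatal markers (median 1.16). Above 0 were 5 of 7 astrocyte, 0 of 7 cortical excitatory neuron, 0 of 6 endothelial and 1 of 8 choroid plexus markers. The part of these cell types in the result was not tested.

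**Figure D3:**
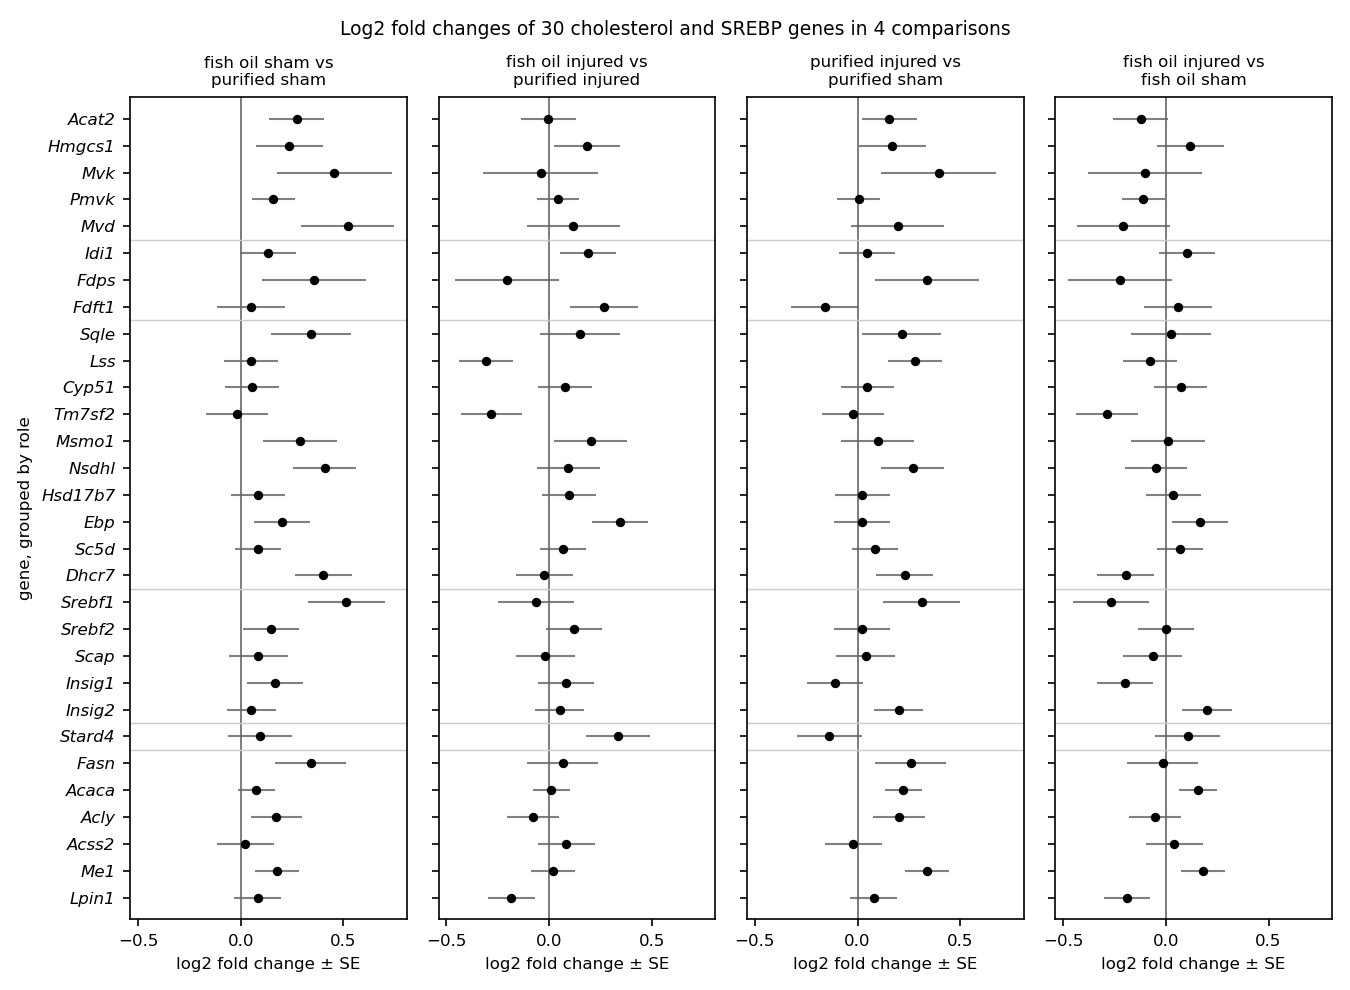
Log2 fold change (horizontal axis, point) with its standard error (bar) of the 30 genes, by role from top to bottom, in 4 comparisons from the fit to all 12 libraries. In fish oil sham against purified sham 29 of 30 points lie right of 0, in fish oil injured against fish oil sham 14 of 30; none passed the adjusted threshold.

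Between the diets in injured mice, values were higher on fish oil in 20 of 30 genes and the median log2 difference was 0.07 against 0.01 over all genes, of which 50.8% were above 0. Without purified injured replicate 3, the olfactory bulb library in which sterol enzymes were low, the count was 11 of 30 and the median -0.01. An unadjusted p under 0.05 was reached by 2 of 30, 1 in each direction, where 10.7% of all genes reached it, and edgeR called 0 of 19252 genes (DESeq2 186, limma-voom 0). Libraries did not overlap in 2 genes that were higher (Ebp and Stard4), against 5.6% of all genes, and in 1 that was lower (Lss), against 5.98%. Endothelial markers summed to 77.0 to 94.7 CPM in fish oil injured and 108 to 149 CPM in purified injured, and choroid plexus markers to 224 to 2654 CPM in fish oil injured and 17.97 to 38.0 CPM in purified injured; their part was not tested. All 10 oligodendrocyte markers had values above 0 in this comparison, at a median log2 fold change of 0.70, with sums of 2010 to 5704 CPM in fish oil injured and 2073 to 3048 CPM in purified injured. The 3 olfactory bulb markers had a median of -5.13, and their sum was high in purified injured replicate 3 alone. The part of these was not tested either.

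Ebp (ENSMUSG00000031168.14, chromosome X, 8185329 to 8193512), the isomerase that moves the sterol double bond, had 16.1, 16.6 and 17.0 CPM in fish oil injured libraries, against 11.6, 12.02 and 15.4 CPM in purified injured libraries. Fish oil injured was tight and wholly above, at a log2 fold change of 0.35 ± 0.14 (SE; adjusted p = 0.427 by edgeR). Lss, which closes the sterol ring, ran the other way, with 57.3, 59.7 and 51.9 CPM in fish oil injured libraries, against 78.5, 67.6 and 62.6 CPM in purified injured libraries. Its log2 fold change was -0.31 ± 0.13 (adjusted p = 0.457). Stard4, which carries cholesterol between membranes, averaged 63.9 ± 1.72 CPM in fish oil injured and 50.6 ± 12.7 CPM in purified injured (SD, n = 3 each). That is a log2 fold change of 0.34 ± 0.16, and 0.13 without purified injured replicate 3. Srebf1 had 17.7, 27.97 and 22.9 CPM in fish oil injured libraries, against 22.9, 27.5 and 21.4 CPM in purified injured libraries, overlapping, at -0.06 ± 0.19. Dhcr7 was at -0.02 ± 0.14.

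The other regulators overlapped between the injured groups. Srebf2 had 123, 162 and 142 CPM in fish oil injured libraries, against 159, 109 and 124 CPM in purified injured libraries, a log2 fold change of 0.12 ± 0.14. Scap had 52.3, 64.6 and 54.1 CPM in fish oil injured libraries, against 68.4, 47.6 and 57.3 CPM in purified injured libraries, at -0.02 ± 0.14. For both, the lowest value was in the olfactory bulb library and the highest or next highest in another library of the same group. Insig1 in purified injured libraries had 95.4, 83.3 and 77.0 CPM.

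Averaged over injury states, the diets differed by a median log2 fold change of 0.13 over the 30 genes, with 27 above 0, where all genes had a median of 0.01 and 52.5% above 0. Without any 1 library 25 to 27 were above 0, and without the 3 libraries richest in choroid plexus markers 22 of 30. An unadjusted p under 0.05 was found for 2, Ebp at 0.27 ± 0.10 and Nsdhl at 0.25 ± 0.11, on a background of 8.85%. In injured mice Nsdhl had 26.7, 30.3 and 29.1 CPM in fish oil libraries, against 26.5, 22.4 and 31.7 CPM in purified libraries, which overlapped. In sham mice Ebp had 13.3, 15.7 and 15.3 CPM in fish oil libraries, against 12.9, 11.6 and 14.0 CPM in purified libraries, which overlapped too. The adjusted p-values of Ebp and Nsdhl for the averaged difference were 0.490 and 0.556 by edgeR, which called 0 genes in all (DESeq2 99, limma-voom 0). Lss at -0.13 ± 0.09, Tm7sf2 at -0.15 ± 0.11 and Lpin1 at -0.05 ± 0.08 were the 3 below 0.

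On the purified diet, 25 of the 30 genes had higher values after injury, and the median log2 fold change was 0.13, where all genes had a median of 0.00 and 50.6% above 0. This comparison uses the same purified sham libraries as the comparison of diets in sham mice, so the 2 are not independent. It also shares the purified injured libraries with the comparison of diets in injured mice, and is not independent of that one either. Again 0 of 30 passed, and 2 had an unadjusted p under 0.05, both higher, where 6.5% of all genes did; edgeR called 0 of 19252 genes (DESeq2 14, limma-voom 0). Every injured library exceeded every sham library in 3 genes, Acaca, Acly and Me1, against 4.92% of all genes, and in 0 every library was lower, against 6.68%. Without purified injured replicate 3, the olfactory bulb library, the count was 10 of 30 against 10.8% of all genes, with Acat2, Hmgcs1, Fdps, Sqle, Nsdhl, Sc5d and Dhcr7 added. The count above 0 ran from 22 to 27 with any 1 library left out, and the median from 0.08 to 0.19. Endothelial markers summed to 108 to 149 CPM in purified injured and 140 to 191 CPM in purified sham, and all 10 oligodendrocyte markers had values below 0, with sums of 2073 to 3048 CPM in purified injured and 1951 to 5810 CPM in purified sham. Above 0 were 0 of 8 choroid plexus (median log2 fold change -1.76), 0 of 6 striatal (-1.08) and 1 of 7 cortical excitatory neuron markers (-0.56). All 3 olfactory bulb markers were above 0, at a median of 5.26, and their sum was high in purified injured replicate 3 alone. So were 5 of 6 microglia, 3 of 7 astrocyte and all 3 inhibitory neuron markers. The part of these cell types and regions was not tested.

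The 2 genes of smallest p, Me1 and Acaca, belong to the fatty acid, acetyl-CoA and NADPH genes. Me1 (ENSMUSG00000032418.15, chromosome 9, 86581371 to 86695953), which makes NADPH from malate, had 57.8, 59.9 and 66.8 CPM in purified injured libraries, against 52.1, 43.7 and 50.1 CPM in purified sham libraries. Its log2 fold change was 0.34 ± 0.11 (SE; adjusted p = 0.763 by edgeR). Acaca, acetyl-CoA carboxylase, which commits acetyl-CoA to fatty acids, had 108, 107 and 112 CPM in purified injured libraries, against 89.8, 99.9 and 90.6 CPM in purified sham libraries. Injured libraries were tight and wholly above, at a log2 fold change of 0.22 ± 0.09 (adjusted p = 0.763). Acly averaged 246 ± 25.7 CPM in purified injured and 214 ± 1.74 CPM in purified sham (SD, n = 3 each), a log2 fold change of 0.20 ± 0.13. Lss had 64.6, 51.4 and 56.1 CPM in purified sham libraries, overlapping with the injured values above, and a log2 fold change of 0.28 ± 0.13, or 0.18 without purified injured replicate 2. Srebf1 was at 0.31 ± 0.19, Srebf2 at 0.02 ± 0.14, Scap at 0.04 ± 0.14 and Insig1 at -0.11 ± 0.14.

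On the fish oil diet the genes were split after injury, with 14 of 30 above 0 and a median log2 fold change of -0.01, equal to the median of -0.01 over all genes, of which 49.0% were above 0. No member had an unadjusted p under 0.05 where 3.48% of all genes did, and edgeR called 0 of 19252 genes (DESeq2 37, limma-voom 1). Libraries did not overlap in 3 genes that were higher (Ebp, Insig2 and Stard4), against 4.97% of all genes. In 1, Insig1, every injured library was lower, against 5.23%. Between the nearest libraries the gap was small for Stard4 (62.0 against 61.8 CPM) and Ebp (16.05 against 15.69 CPM). Choroid plexus markers summed to 224 to 2654 CPM in fish oil injured and 33.7 to 64.4 CPM in fish oil sham, with none at 0, and their part was not tested.

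The Insig genes, whose proteins hold Scap in the endoplasmic reticulum, had log2 fold changes of opposite sign. Insig1 had 88.8, 86.0 and 95.6 CPM in fish oil injured libraries, all below the fish oil sham values above, a log2 fold change of -0.20 ± 0.14 (SE; adjusted p = 0.999 by edgeR). Insig2 had 60.4, 57.1 and 61.3 CPM in fish oil injured libraries, against 55.5, 52.4 and 47.7 CPM in fish oil sham libraries, a log2 fold change of 0.20 ± 0.12 (adjusted p = 0.999). Tm7sf2 had the smallest p, with 9.65, 11.7 and 10.8 CPM in fish oil injured libraries, against 11.48, 14.7 and 12.9 CPM in fish oil sham libraries. Its groups overlapped by a narrow margin, and the log2 fold change was -0.29 ± 0.15 (adjusted p = 0.999). Acaca had 113, 113 and 103 CPM in fish oil injured libraries, against 99.8, 89.6 and 106 CPM in fish oil sham libraries, overlapping, at 0.16 ± 0.09. Srebf1 was at -0.27 ± 0.19, or -0.11 without fish oil injured replicate 2, and Dhcr7 at -0.20 ± 0.14.

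**Figure D4:**
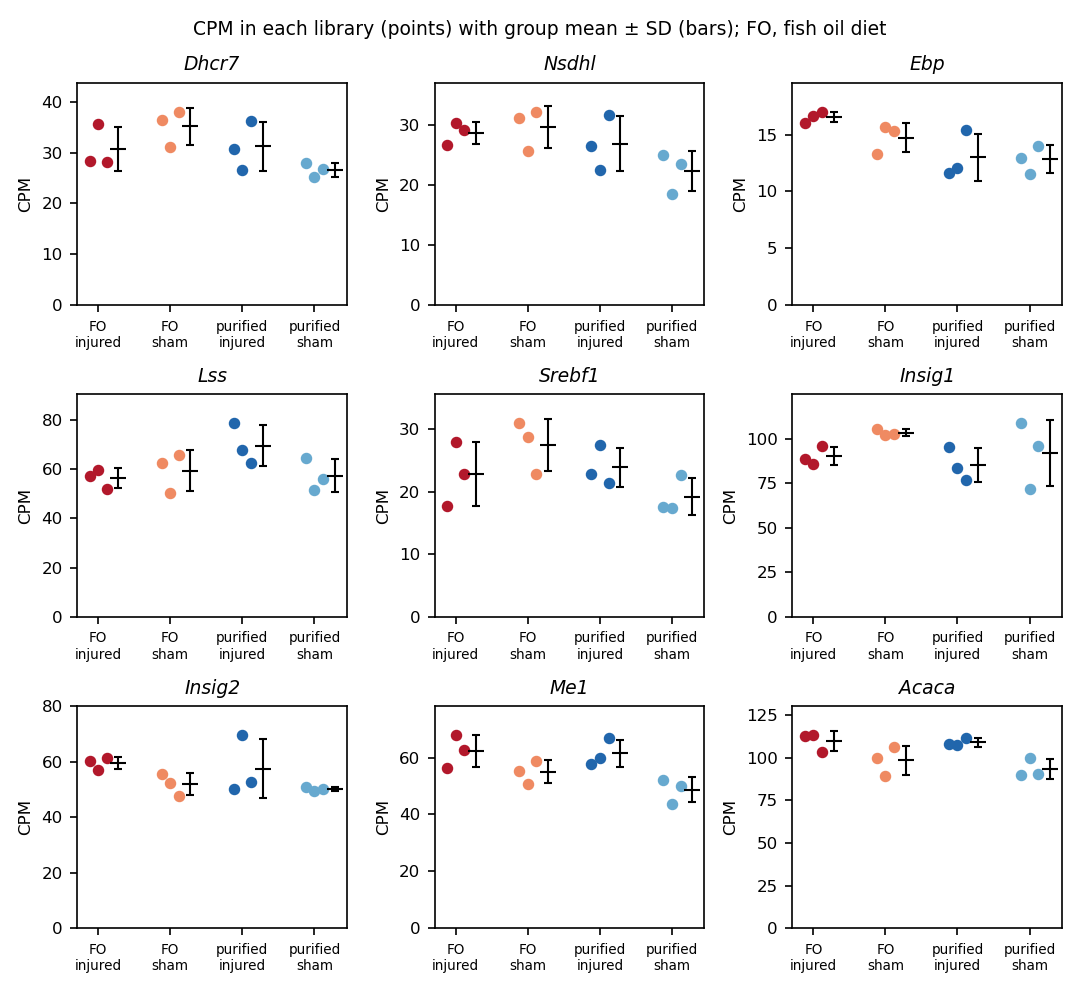
CPM of 9 genes (vertical axes, from 0) in each library (points) of the 4 groups, with the group mean and SD (bars, n = 3). Dhcr7, Nsdhl and Srebf1 lie higher in all 3 fish oil sham than in all 3 purified sham libraries, Ebp lies highest in fish oil injured, and Me1 and Acaca lie higher in purified injured than in purified sham.

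Injury averaged over the diets left 22 of 30 genes above 0, with a median log2 fold change of 0.06 against 0.00 over all genes, 50.3% of them above 0. The count ran from 17 to 24 with any 1 library left out. Without the 3 libraries richest in choroid plexus markers it was 11 of 30, and the median was -0.02. An unadjusted p under 0.05 was found for 3 of 30, all higher, on a background of 3.6%: Me1 at 0.26 ± 0.08, Acaca at 0.19 ± 0.06 and Insig2 at 0.20 ± 0.08 (adjusted p = 0.991 for each by edgeR, which called 0 genes; DESeq2 called 3 and limma-voom 2). Insig2 had 50.2, 69.6 and 52.7 CPM in purified injured libraries, against 49.3 to 50.8 CPM in the 3 purified sham libraries, so on that diet its difference lay largely in replicate 3, the olfactory bulb library. Without that library the averaged log2 fold change of Insig2 was 0.12. Me1 had 56.4, 67.9 and 62.6 CPM in fish oil injured libraries, against 55.4, 50.8 and 58.8 CPM in fish oil sham libraries, which overlapped.

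The interaction asks whether injury acted differently on the diets, as the injury difference on fish oil minus that on the purified diet. It was below 0 for 22 of 30 genes, with a median log2 difference of -0.11 against -0.02 over all genes, of which 47.6% were above 0. The purified sham libraries enter it as they enter the diet comparison in sham mice and the injury comparison on the purified diet. The interaction is therefore not independent of those comparisons. With any 1 library left out, 4 to 11 of the 30 were above 0, in place of 8. Srebf1 had the smallest p at -0.58 ± 0.26 (SE; adjusted p = 0.820 by edgeR), then Dhcr7 at -0.43 ± 0.20, which had 28.4, 35.7 and 28.1 CPM in fish oil injured and 30.8, 26.6 and 36.3 CPM in purified injured libraries. Srebf1 was the 1 gene of 30 with an unadjusted p under 0.05, against 5.76% of all genes, and 0 passed (edgeR 0 of 19252 genes, DESeq2 21, limma-voom 0). Fdps was at -0.56 ± 0.36 and Stard4 at 0.24 ± 0.22. Without purified injured replicate 3, the olfactory bulb library, Stard4 was at 0.03 and the median of the 30 at -0.20.

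Genes around the pathway were read from 4 further lists. In fish oil sham against purified sham, 9 of 11 further lipogenic genes were above 0 at a median log2 difference of 0.21, and 0 passed. The one with the smallest p was Scd2, a stearoyl-CoA desaturase of brain, which had 2105, 1709 and 1809 CPM in fish oil sham libraries, against 1432, 1182 and 1641 CPM in purified sham libraries. Its groups did not overlap, at 0.40 ± 0.13 (SE; adjusted p = 0.934 by edgeR). Averaged over injury states, Mid1ip1, a helper of acetyl-CoA carboxylase, was at 0.45 ± 0.13 (adjusted p = 0.451). The lists of SREBP processing and sterol sensing (5 of 13 above 0, median -0.03), of sterol uptake, transport and efflux (12 of 25, median -0.01) and of isoprenoid branches (5 of 13, median -0.00) were split in the same comparison of sham mice. In injured mice on fish oil against the purified diet, the lowest p in these lists belonged to Gramd1a, a sterol transporter at membrane contacts, with 60.9, 59.3 and 52.7 CPM in fish oil injured libraries, against 84.4, 67.3 and 71.4 CPM in purified injured libraries. Its log2 fold change was -0.37 ± 0.10 (adjusted p = 0.369), and that of Dgat1, which makes triglyceride, was -0.57 ± 0.17 (adjusted p = 0.386). The sterol-regulated gene Tmem97 was at 0.36 ± 0.13 in the same comparison (adjusted p = 0.408 by edgeR). After injury on the purified diet Tmem97 was at -0.37 ± 0.13 (adjusted p = 0.763 by edgeR). Both comparisons use the purified injured libraries, with 11.1, 8.91 and 10.8 CPM of Tmem97, so these values are not independent. The lowest of them is from the olfactory bulb library. Over the 7 comparisons 0 members of the 4 lists passed.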

How the data were processed

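RNA was measured by paired-end sequencing of total RNA libraries made with a strand-preserving kit, per the labels' protocols. Reads were processed with STAR 2.5.2a and featureCounts 1.4.3-p1 on mm10, per the submitters' processing notes. The deposited values are raw counts per gene, while its annotation release, strand setting and handling of multiply mapping reads are unstated in these sources. Values of 2 outnumbered values of 1 (20514 against 11222), so both mates of a pair may have been counted. The submitters' library names hold a first number that libraries of different groups never share. Within each group replicates 3 and 4 share it. What it marks is not given, and it cannot be told apart from the groups.

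Identifiers were matched to GENCODE M21 (53274 of 53379 without version), gene coordinates being given only for members that matched with version, 27 of 30. Promoter coordinates are those of RefSeq, matched by symbol. Replicates of a group differed far beyond sampling noise (chi-square per degree of freedom of 32.5 or more). Genes were filtered with filterByExpr (minimum count 10), leaving 19252. With TMM factors, the robust quasi-likelihood model of edgeR 4.0.16 took all 12 libraries and a mean for each of the 4 groups, with Benjamini-Hochberg adjustment over all genes and a threshold of 0.05. Standard errors were derived from the F statistic. Levels per kilobase use merged exons of M21. Near-identical copies were sought with blastn among M21 transcripts (at least 95% identity over 200 bases).

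The members, the lists and the alternatives were chosen with earlier results of these data known. Values per library were given for the SREBP regulators and, in each comparison, the 2 members of smallest p; of the further lists, genes of smallest p in a comparison were named; others named were chosen after their values were seen. Alternatives were RLE and upper-quartile factors, DESeq2 1.42.0, limma-voom (limma 3.58.1), other filters, fits restricted to the groups compared, a block for replicate number, halved counts and leaving out libraries.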

Additional observations from a re-analysis of the deposited data

How the results depend on the processing

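No member passed the threshold in any comparison under any of the 23 alternatives run, and the lowest adjusted p of a member was 0.131 (Ebp, diet in injured mice, without purified injured replicate 4). Medians of the 30 genes moved by less than the spread between replicates (SD 0.101) under every alternative but one, chosen after seeing the data: without fish oil injured replicates 3 and 4 and purified sham replicate 3, the libraries with 480 to 2654 CPM of choroid plexus markers, which leaves 1 fish oil injured library whose spread is assumed equal to that of the other groups. There the median was -0.13 for injury on fish oil, -0.040 for diet in injured mice (0.07 with all libraries) and -0.02 for injury averaged over diets (0.06 with all libraries, a move smaller than that spread), and the median of diet in sham mice was 0.14, with 28 of 30 genes above 0. The sign of the median also turned for injury on fish oil when fish oil injured replicate 2, fish oil sham replicate 2 or fish oil sham replicate 4 was left out (up to 0.02) and for diet in injured mice without purified injured replicate 3 (-0.01). Without both libraries of other regions both signs turned as well. Over all genes edgeR called 0 in each comparison. DESeq2 called 14 (injury, purified diet), 37 (injury, fish oil), 17 (diet, sham), 186 (diet, injured), 3 (injury averaged), 99 (diet averaged) and 21 (interaction). Limma-voom called 1 for injury on fish oil and 2 for injury averaged, and no filter gave 1 for injury averaged and 2 for diet averaged. With 1 library left out the counts ran from 0 to 7 for injury on fish oil (7 without fish oil injured replicate 2) and from 0 to 83 for diet in injured mice (83 without purified injured replicate 4, 14 without fish oil injured replicate 2, 1 without purified injured replicate 3). They ran from 0 to 6 for diet averaged (6 without purified injured replicate 4). Without both libraries of other regions 1 gene was called for diet in injured mice. The cause of these differences was not tested. Same-numbered libraries did not deviate together (3 of 18 pairs with a correlation above 0.1, range -0.37 to 0.28), and with the replicate number as a replicate block 0 genes were called in each comparison, with a median of 0.17 for diet in sham mice.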

Other observations

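Ch25h, which makes 25-hydroxycholesterol, a sterol that blocks SREBP release, had the smallest p among sterol transport and efflux genes for injury on the purified diet, with 0.0788, 0.122 and 0.160 CPM in purified injured libraries, against 0.132, 0.639 and 2.53 CPM in purified sham libraries. The groups overlapped, and the log2 fold change was -3.17 ± 0.95 (SE; adjusted p = 0.763 by edgeR). The levels were near the floor, and the difference lay largely in purified sham replicate 4, at 2.53 CPM.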
